A study of Mus musculus with 8 samples.

Results

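The 9 genes described are those members of the mouse Hoxa cluster, Hoxa2, Hoxa3, Hoxa4, Hoxa5, Hoxa6, Hoxa7, Hoxa9, Hoxa10 and Hoxa11, whose symbols were looked up in a count table of 54532 gene rows. All 9 had a row, 7 had enough reads to be tested, Hoxa4 was under the read filter and Hoxa11 had no read in any library. The RNA came from LSK cells of C57BL/6 bone marrow, a lineage-negative fraction with Sca-1 and c-Kit on the surface, which holds haematopoietic stem cells and early multipotent progenitors. The 3 AML1/ETO libraries came from mice with the genotype Runx1-Runx1t1, the fusion of the DNA-binding part of RUNX1 with the corepressor RUNX1T1 (ETO), and the 5 control libraries from WT mice. Mice of both groups had received poly(I:C), a double-stranded RNA that induces interferon, in 4 injections of 5 mg/kg, and were killed after 4 weeks. The allele's construction, its promoter or any Cre line that activates it, and the animals' age were not stated in the labels, nor was it said whether each library is 1 animal. The p-values therefore reflect library-to-library spread, which may be technical.

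Hox genes encode homeodomain transcription factors that give embryonic tissues their position along the body axis. Their order along the chromosome matches the order in which they act, from 3′ genes such as Hoxa2 at the head end to 5′ genes such as Hoxa11 toward the tail. In blood, the central and 5′ genes, Hoxa5, Hoxa7, Hoxa9 and Hoxa10, are active in stem cells and early progenitors and are switched off as cells mature. HOXA9 in particular drives self-renewal together with its partner MEIS1, and MLL complexes keep the cluster open while Polycomb complexes close it.

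In mm10 the 9 genes lie on the minus strand of chromosome 6, over 83.4 kb from 52162417 to 52245810. Windows upstream of annotated transcription starts of Hoxa7, Hoxa9 and Hoxa10 are shown because these neighbours behaved differently in the counts below. The windows of Hoxa7, Hoxa9 and start 2 of Hoxa10 lie inside the gene spans given below, which reach further upstream. All windows are RefSeq sequences on GRCm38.p6, the assembly that mm10 denotes. They are written from the far end toward the start, and only where no annotated exon lies. Capitals mark matches on either strand to the letters TGTGGT (RUNX), TTTATG (CDX) or TGATTNAT (PBX-HOX).
Hoxa7, chr6:52218712-52218823, 112 bases: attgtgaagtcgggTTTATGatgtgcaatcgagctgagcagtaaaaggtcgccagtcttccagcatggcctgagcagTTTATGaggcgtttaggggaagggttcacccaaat
Hoxa9, chr6:52227371-52227620, 250 bases: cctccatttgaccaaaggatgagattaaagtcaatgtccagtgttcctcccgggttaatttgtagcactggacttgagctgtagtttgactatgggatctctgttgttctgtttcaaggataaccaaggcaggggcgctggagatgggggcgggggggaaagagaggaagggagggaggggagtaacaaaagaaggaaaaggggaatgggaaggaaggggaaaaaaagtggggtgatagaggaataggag
Hoxa10, start 1, chr6:52240855-52241104, 250 bases: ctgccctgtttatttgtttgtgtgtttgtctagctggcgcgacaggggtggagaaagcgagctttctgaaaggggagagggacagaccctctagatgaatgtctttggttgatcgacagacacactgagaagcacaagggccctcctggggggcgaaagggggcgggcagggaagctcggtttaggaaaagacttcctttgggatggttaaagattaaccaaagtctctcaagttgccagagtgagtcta
Hoxa10, start 2, chr6:52234940-52235189, 250 bases: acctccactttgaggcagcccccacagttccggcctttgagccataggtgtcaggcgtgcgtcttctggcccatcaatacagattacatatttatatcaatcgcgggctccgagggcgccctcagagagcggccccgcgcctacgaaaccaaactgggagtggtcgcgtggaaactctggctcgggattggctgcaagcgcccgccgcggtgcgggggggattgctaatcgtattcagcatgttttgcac

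The RUNX letters were in none of the 9 windows of 300 bases (250 before to 50 after the start) that the table holds for 8 of the members, against 16.8% of 32851 windows of all genes. The Hoxa7 window held the CDX letters at 2 places, both in the stretch printed above; 11.9% of all windows held them. The PBX-HOX letters were in the Hoxa2 window alone among the members and in 3.22% of all windows. Only these exact letters were sought, and 9 windows are too few to tell none from a share of 16.8%. These matches describe letters in short windows and say nothing of where any factor was bound.

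Library totals ran from 14693080 to 17527043 counted reads. Over all genes, 1734 of 15009 tested rose and 2128 fell in AML1/ETO (quasi-likelihood F-test of edgeR, threshold 0.05 after Benjamini-Hochberg adjustment), or 1407 and 2712 when libraries were scaled by totals alone, a scaling that shifted the all-gene median by −0.15 on the log2 scale. Runx1t1, which carries the ETO part of the fusion, was counted 712, 1971 and 1611 times in AML1/ETO and from 27 to 132 times in the controls. Kit was at 378 CPM (counts per megaread, on TMM-scaled library sizes) or more in every library. The Sca-1 gene Ly6a was only at 8.26 to 23.4 CPM in the controls, against 221 to 921 CPM in AML1/ETO. Ddx3y on the Y chromosome had no read in AML1/ETO and 3688 to 5038 in the controls, and Xist was high in AML1/ETO alone, so sex and genotype cannot be told apart for the genes below. Scarce transcripts were often missed: where the group's other libraries predicted 20 to 50 reads for a gene, 41.4% to 51.1% of genes had none in the AML1/ETO libraries, 46.2% in control library 1 and 10.5% to 27.0% in the other controls. The prediction averages fewer libraries in AML1/ETO than in the controls, so these shares cannot be compared directly between the groups.

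Hoxa9 and Hoxa10, next to each other toward the 5′ end of the cluster, fell in AML1/ETO cells. Hoxa9 stood at about the same level in all 3 AML1/ETO libraries, below that of every control, and Hoxa10 was nearly without reads. None of the members rose, by edgeR, DESeq2 or limma-voom or at an unadjusted edgeR p under 0.05. The 2 falls among 7 tested members compare with 14.2% of all tested genes that fell, and 11.6% rose. The log2 fold change was below 0 for 6 of the 7, with a median of −1.01 against −0.09 for all tested genes.

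Hoxa10 (ENSMUSG00000000938, chromosome 6, 52231197 to 52240854) encodes a homeodomain factor of early progenitors, also needed in the limbs and uterus. Of its transcripts 0, 0 and 17 were read in AML1/ETO libraries 1, 2 and 3. In control libraries 1 to 5 it had 218, 366, 613, 539 and 371 reads. Every control was far above every AML1/ETO library, and the lowest control was library 1, the one among the controls in which scarce genes were most often missed. The means were 0.371 ± 0.642 CPM (SD, n = 3) and 24.1 ± 8.50 CPM (SD, n = 5), a 65.1-fold difference. The log2 fold change was −5.98 (SE 1.08, adjusted p = 0.00185, edgeR). The size rests on the 17 reads of AML1/ETO library 3: without it Hoxa10 was at least 116-fold lower at a floor of 3 reads per library, which covers counting error only and not the missed transcripts described above, and without library 1 or 2 it was 43.4-fold lower. Only 3.08% of all tested genes were called lower by 4 or more on the log2 scale. Among 2366 genes with control means of 16.1 to 36.2 CPM, within 1.5 times that of Hoxa10, 94.3% had reads in all 3 AML1/ETO libraries. In this band 58 genes, or 2.45%, Hoxa10 among them, were at 0 in at least 2 of these libraries.

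Hoxa9 (ENSMUSG00000038227, chromosome 6, 52223100 to 52231089) encodes the HOX factor most often tied to stem cell self-renewal and to myeloid leukaemia. It stood at 34.8, 32.5 and 39.4 CPM in AML1/ETO libraries 1, 2 and 3. In the controls it stood at 46.1, 70.4, 82.6, 82.9 and 77.4 CPM. The groups did not overlap, although control library 1 came near the AML1/ETO range. The mean fell from 71.9 ± 15.3 CPM (SD, n = 5) to 35.6 ± 3.54 CPM (SD, n = 3), a 2.02-fold difference (log2 fold change −1.01, SE 0.23, edgeR adjusted p = 0.00699). With only the libraries numbered 1 to 3 of each group it was −0.87 and not called (adjusted p = 0.0673; over the alternatives adjusted p ran from 0.000968 to 0.0933). Leaving out any single library kept the call.

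Hoxa7 (ENSMUSG00000038236, chromosome 6, 52214491 to 52221854), the next gene toward the 3′ end, encodes a homeodomain factor of the trunk region that is also expressed in early progenitors. It stood at 46.1, 27.4 and 38.4 CPM in the AML1/ETO libraries and at 25.9, 26.9, 36.5, 21.3 and 23.5 CPM in the controls. The groups overlapped, with AML1/ETO library 2 inside the control range. The means were 37.3 ± 9.42 CPM (SD, n = 3) and 26.8 ± 5.83 CPM (SD, n = 5), and the log2 fold change was 0.47 (SE 0.27, edgeR adjusted p = 0.223). It was above 0 under every alternative, from 0.27 to 0.65, and called under none. Of its exon bases, 20.4% overlap Hoxaas3 on the other strand, so some of its reads may belong to that transcript or have been left uncounted.

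**Figure D1:**
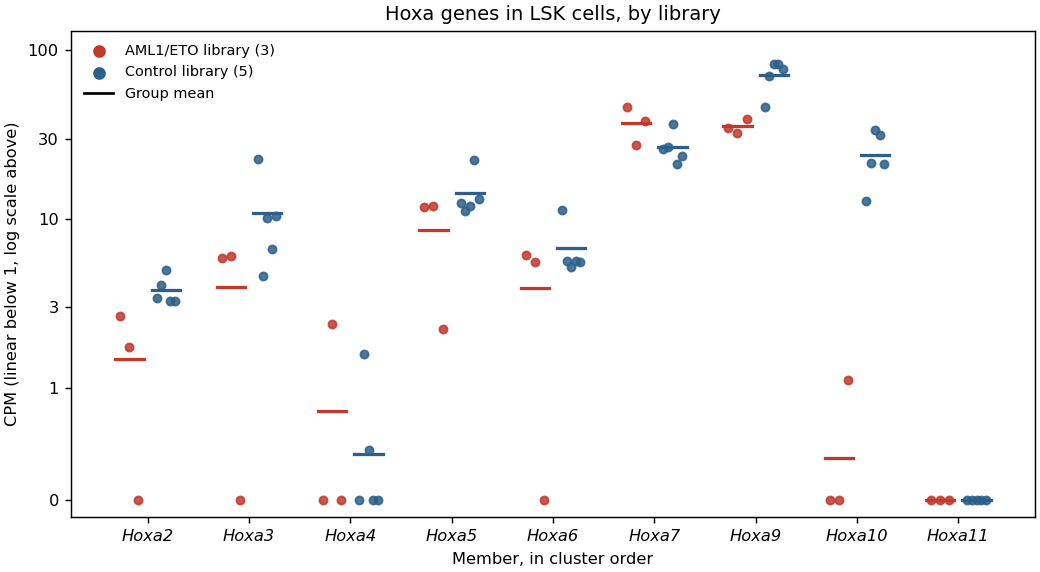
Each point is 1 library and each bar a group mean; the y axis is CPM on TMM-scaled library sizes, linear below 1 and logarithmic above, and members follow their order from Hoxa2 to Hoxa11. Hoxa9 and Hoxa10 separate the groups, Hoxa7 does not, and AML1/ETO library 3 is at 0 for Hoxa2, Hoxa3, Hoxa4 and Hoxa6.

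The 3′ members Hoxa2 to Hoxa6 were lower on average in AML1/ETO wherever they could be tested, but none passed. Hoxa2, which patterns the hindbrain and the second pharyngeal arch, had 35, 28 and 0 reads in AML1/ETO and 58, 69, 91, 56 and 57 in the controls. Every AML1/ETO library was below every control for Hoxa2, but the test did not pass (log2 fold change −1.37, SE 1.30, adjusted p = 0.503, edgeR). The log2 fold change of Hoxa2 was −0.79 (SE 0.96) when AML1/ETO library 3 was left out. Hoxa2, Hoxa9 and Hoxa10 were the 3 of 7 tested members in which every AML1/ETO library was below every control. Of all tested genes 17.5% had this pattern. No member had every AML1/ETO library above every control, as 14.1% of tested genes did.

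Hoxa3, a gene of thymus and parathyroid development, had 77, 97 and 0 reads in AML1/ETO and 387, 78, 185, 114 and 181 in the controls. Control library 1 was the highest and control library 2 lay among the AML1/ETO libraries (log2 fold change −1.46, SE 1.08, adjusted p = 0.372). The Hoxa3 model reaches from 52169062 to 52213336, across Hoxa4, Hoxa5 and Hoxa6, and 27.1% of its exon bases are shared with other genes, on either strand. Its counts therefore depend on how the overlapping reads were assigned.

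Hoxa5, a factor of lung development and of myeloid progenitors, stood at 11.8, 11.9 and 2.22 CPM in AML1/ETO and at 12.5, 11.1, 11.9, 22.4 and 13.1 CPM in the controls. AML1/ETO libraries 1 and 2 lay within the control range and library 3 far below it (log2 fold change −0.72, SE 0.56, adjusted p = 0.395). The log2 fold change of Hoxa5 was −0.27 when library 3 was left out. Hoxa6, a trunk gene between Hoxa5 and Hoxa7, showed the same arrangement, with 6.13, 5.56 and 0 CPM in AML1/ETO. Its controls were at 11.3, 5.63, 5.22, 5.65 and 5.56 CPM, so that 4 of the 5 lay level with AML1/ETO libraries 1 and 2 (log2 fold change −0.78, SE 1.11, adjusted p = 0.685). Its value was −0.20 with AML1/ETO library 3 left out.

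AML1/ETO library 3 thus held no read of Hoxa2, Hoxa3 or Hoxa6, where 33.6, 90.9 and 89.4 reads were expected from libraries 1 and 2, and 34 reads of Hoxa5. In that library 51.1% of all genes with 20 to 50 expected reads were at 0, and 16.8% of those with 50 to 150. Its part in the lower means of Hoxa2 to Hoxa6 was not tested beyond the values without it. The same library had 587 reads of Hoxa7, 603 of Hoxa9 and the only reads of Hoxa10 in its group.

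Hoxa4, a trunk gene, had 38 reads in AML1/ETO library 2 and 27 and 8 in control libraries 2 and 3, and none in the other 5 libraries. Hoxa11, a gene of the limb and kidney, had none in any of the 8, a count of 0 that allows up to 3 reads per library and covers counting error only.

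**Figure D2:**
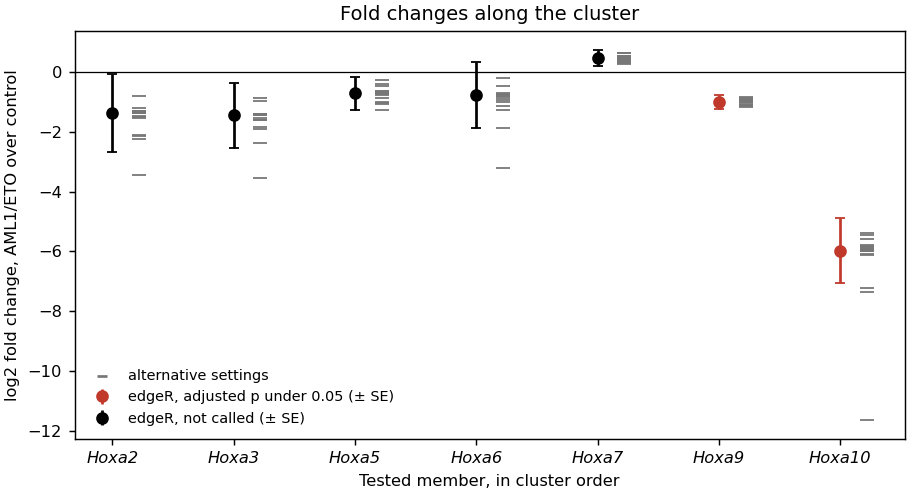
The y axis is the log2 fold change of AML1/ETO over control from edgeR with its SE, for the 7 tested members in cluster order; grey marks are the same value under each of 18 alternative settings. Hoxa9 and Hoxa10 (red) passed, Hoxa7 is the only member above 0, and the mark near −12 for Hoxa10 is the fit without AML1/ETO library 3, where its AML1/ETO reads were all 0.

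Shares within the cluster do not depend on how libraries were scaled, but the CPM sums given with them do. All 9 members together had 1418, 1400 and 1241 reads in AML1/ETO and 2301 to 3375 in the controls. That is 92.0 ± 13.7 CPM (SD, n = 3) against 159 ± 20.7 CPM (SD, n = 5), a sum 1.73-fold lower. Without Hoxa7 the sum was 2.41-fold lower. Hoxa7 made up 42.9%, 31.3% and 47.3% of the member reads in AML1/ETO, where each control had 12.3% to 19.7%.

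Hoxa7 had 1.32, 0.842 and 0.973 reads for each read of Hoxa9 in AML1/ETO libraries 1, 2 and 3. In the controls it had 0.562, 0.382, 0.442, 0.257 and 0.304. The ratio was higher in every AML1/ETO library than in any control. On the log2 scale it averaged 0.04 ± 0.33 (SD, n = 3) against −1.42 ± 0.44 (SD, n = 5), a difference of 1.45. Hoxa10 made up 0, 0 and 2.74% of the reads of Hoxa9 and Hoxa10 together in AML1/ETO. The 95% intervals (Clopper-Pearson, counting error only) were 0 to 0.799%, 0 to 0.707% and 1.61% to 4.35%. In the controls the share was 21.7%, 23.4%, 29.0%, 27.5% and 21.6%. Every control share was above every AML1/ETO share. These 2 ratios were chosen after their values were seen and are given as a description, with no test.

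**Figure D3:**
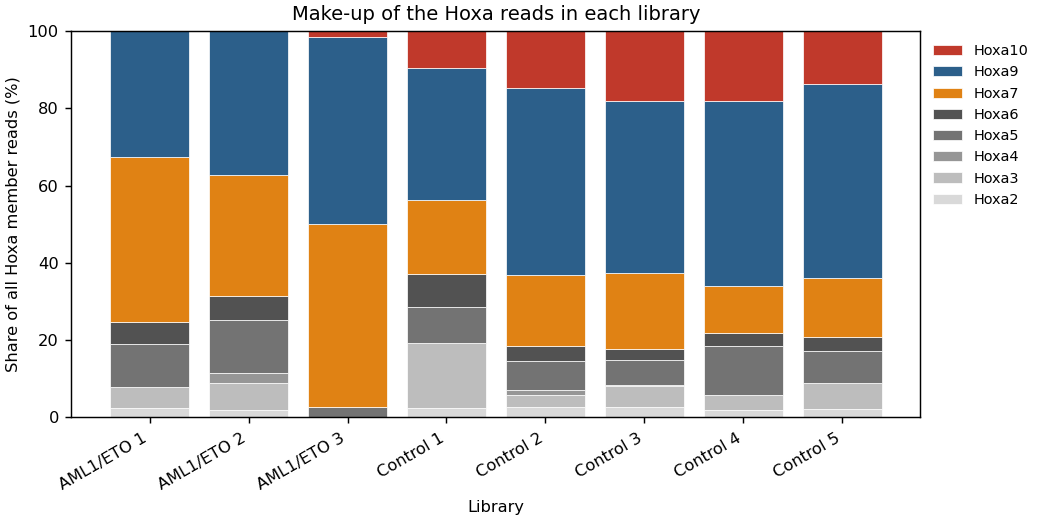
Each bar is 1 library and its segments are the percent of all reads of the 9 members that fell on each gene; Hoxa11 had none. The Hoxa10 segment is 9.47% to 18.2% in the controls and 0 to 1.37% in AML1/ETO, and the Hoxa7 segment is at least 31.3% in AML1/ETO and at most 19.7% in the controls.

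Levels of different genes were compared per kilobase of exon (RPKM, on TMM-scaled sizes). In the controls the order was Hoxa9 at 12.9 ± 2.74, Hoxa7 at 9.33 ± 2.03, Hoxa6 at 7.65 ± 2.99, Hoxa5 at 7.57 ± 2.48 and Hoxa10 at 7.38 ± 2.60 RPKM (SD, n = 5). Each of these 5 overlapped its neighbours in the order. Hoxa2 at 2.14 ± 0.42, Hoxa3 at 1.81 ± 1.17 and Hoxa4 at 0.254 ± 0.430 RPKM followed, with Hoxa2 and Hoxa3 within their spread. In AML1/ETO the order began with Hoxa7 at 12.97 ± 3.28 and Hoxa9 at 6.38 ± 0.63 RPKM (SD, n = 3), which did not overlap. Hoxa7 was above Hoxa9 per kilobase in all 3 AML1/ETO libraries and in control library 1, and below it in the other 4 controls. Hoxa5 at 4.60 ± 2.96 and Hoxa6 at 4.46 ± 3.88 RPKM came next. The mean of Hoxa10, 0.113 ± 0.196 RPKM, stood below the means of Hoxa2, Hoxa3 and Hoxa4. In AML1/ETO library 3, however, Hoxa10 was at 0.340 RPKM and Hoxa2, Hoxa3 and Hoxa4 at 0. The AML1/ETO mean of Hoxa4 came from library 2 alone. In every control Hoxa10 was above Hoxa2, Hoxa3 and Hoxa4 by this length. In control library 1 it was nearly level with Hoxa3, at 3.90 against 3.76 RPKM. The exons of Hoxa3 cover 6014 bases but its longest transcript 2591, against 3270 and 2565 for Hoxa10. With the longest transcript as length, Hoxa10 was below Hoxa3 and Hoxa7 below Hoxa9 in control library 1.

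Transcription around the members was sparse. The antisense transcript Hoxaas3 had none in AML1/ETO and 71, 53, 0, 63 and 0 in the controls (adjusted p = 0.0814, edgeR), and Hoxaas2 had 25 reads in AML1/ETO library 1 alone and 26 to 102 in control libraries 2 to 5. Hotairm1, a noncoding RNA of the 3′ end of the cluster, had 62 reads in control library 4 only. Halr1, Hoxa11os, Hoxa13, Hottip, Evx1 and Mir196b had none in any library; Mir196b lies wholly inside a Hoxa9 exon, and the 2 share those bases. Skap2, an adaptor protein gene outside the 3′ end of the cluster, stood at 91.3 ± 25.5 CPM (SD, n = 3) and 105 ± 5.92 CPM (SD, n = 5), and its log2 fold change was −0.20 (SE 0.19, edgeR adjusted p = 0.521).

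The partners that bind DNA with HOX proteins, the TALE homeodomain factors, moved apart. Of 9 tested genes 4 rose and 2 fell, with a median log2 fold change of 1.07 against −0.09 for all tested genes; 25.7% of all tested genes changed in either direction. Meis1, the partner of HOXA9 in leukaemia, rose from 78.5 ± 12.6 CPM (SD, n = 5) to 165 ± 23.8 CPM (SD, n = 3), opposite in direction to Hoxa9 (log2 fold change 1.07, adjusted p = 0.00105). Pbx4 rose to 85.1 from 15.2 CPM, Tgif1 to 183 from 60.3 CPM and Pbx2 to 118 from 52.8 CPM. Meis3, at about 1 CPM in the controls and 0 in AML1/ETO, passed in the fit but was lost when any library other than control library 1 was left out.

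Of the MLL and DOT1L group that keeps Hoxa chromatin active, 6 of 19 tested fell and 1 rose, where 14.2% of all tested genes fell and 11.6% rose, with a median log2 fold change of −0.31. Kat7 and Brpf1, parts of histone acetyltransferase complexes, fell to 140 from 253 CPM and to 118 from 239 CPM. Psip1, which tethers MLL to chromatin, fell to 48.8 from 118 CPM, and Hcfc1, a subunit of MLL-family complexes, to 312 from 610 CPM. Kmt2a, which encodes MLL itself, stood at 443 against 411 CPM (adjusted p = 0.804, edgeR), and neither it nor its cofactor Men1 (adjusted p = 0.473) was called. The 1 rise, Mllt10, was lost without AML1/ETO library 1 or 3 or control library 1, 2 or 3, by limma-voom and with scaling by totals alone.

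Of 27 tested Polycomb genes, whose complexes close the cluster, 3 rose and 5 fell, with a median log2 fold change near 0 (0.0045). The share called lay near the 25.7% of all tested genes. Of the list, 3 fell without control library 2 and 8 with scaling by totals alone, and DESeq2 called 5 higher. Phf1 and Cbx7, accessory and chromatin-reading subunits, rose to 102 from 24.5 CPM and to 101 from 24.0 CPM, and the methyltransferase gene Ezh1 to 107 from 50.3 CPM. Aebp2, a cofactor of the same complex, fell to 67.9 from 158 CPM. Ezh2, the main methyltransferase of dividing cells, stood at 59.7 against 59.5 CPM (adjusted p = 0.995).

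Among 12 tested upstream regulators 2 rose and 2 fell, with a median of −0.27, also near the 25.7% of all tested genes called in either direction. Kdm6b and Kdm6a, demethylases that remove the Polycomb mark, rose to 1332 ± 902 from 334 ± 67.0 CPM and to 207 from 130 CPM. Kdm6a lies on the X chromosome, as do Hcfc1 above and Cybb below. The groups differ in sex-linked transcripts, so the rise of Kdm6a cannot be told apart from a difference of sex. Npm1, whose mutant form sustains Hoxa expression in leukaemia, fell to 417 from 825 CPM, and Kdm2b to 86.6 from 137 CPM. With a library left out 1 to 4 of this list fell: 4 without AML1/ETO library 1, and 1 without AML1/ETO library 3 or control library 1, 2 or 5. Cdx1, Cdx2 and Cdx4, embryonic activators of the Hox clusters, had no read in any library.

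Genes reported as targets or partners of HOXA9 went both ways, with 11 of 27 tested higher and 4 lower and a median of 0.31, against 11.6% higher and 14.2% lower among all tested genes. Scaling by totals alone gave 7 lower. Gfi1, a repressor that competes with HOXA9 at shared sites, rose to 275 from 17.2 CPM, and the kinase genes Camk2d and Pim1 to 136 from 24.7 CPM and to 1747 from 224 CPM. Cybb, an oxidase subunit of mature phagocytes, had no read in AML1/ETO against 13.3 ± 5.99 CPM (SD, n = 5) and was at least 65.1-fold lower, at the same floor and with the same limit. The list mixes genes that HOXA9 is said to raise and to lower, so its median has no single direction to be read against Hoxa9.

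In the other Hox clusters 4 of 28 genes were tested, all in Hoxb, and 2 fell, none rose (also none by DESeq2, limma-voom or at an unadjusted edgeR p under 0.05). Of all tested genes 14.2% fell and 11.6% rose. Hoxb4, a gene that expands stem cells, stood at 5.38, 6.94 and 9.88 CPM in AML1/ETO and from 19.2 to 31.7 CPM in the controls, with a median of 20.8. It fell by 1.63 on the log2 scale (SE 0.36, edgeR adjusted p = 0.00631) and its groups did not overlap. Hoxb2 had no read in AML1/ETO and 0.385 to 3.55 CPM in the controls (adjusted p = 0.0275, edgeR), and the count fell to 1 by limma-voom and without AML1/ETO library 2 or 3 or control library 2 or 4. Hoxb3 at 1.62 against 8.52 CPM (adjusted p = 0.125) and Hoxb5 at 0 against 1.79 CPM (adjusted p = 0.0541) were not called by edgeR. DESeq2 called all 4 lower, and edgeR called 3 with scaling by totals alone or without control library 1. With genes at 0 held at their floor, the list's median log2 fold change was −2.76.

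**Figure D4:**
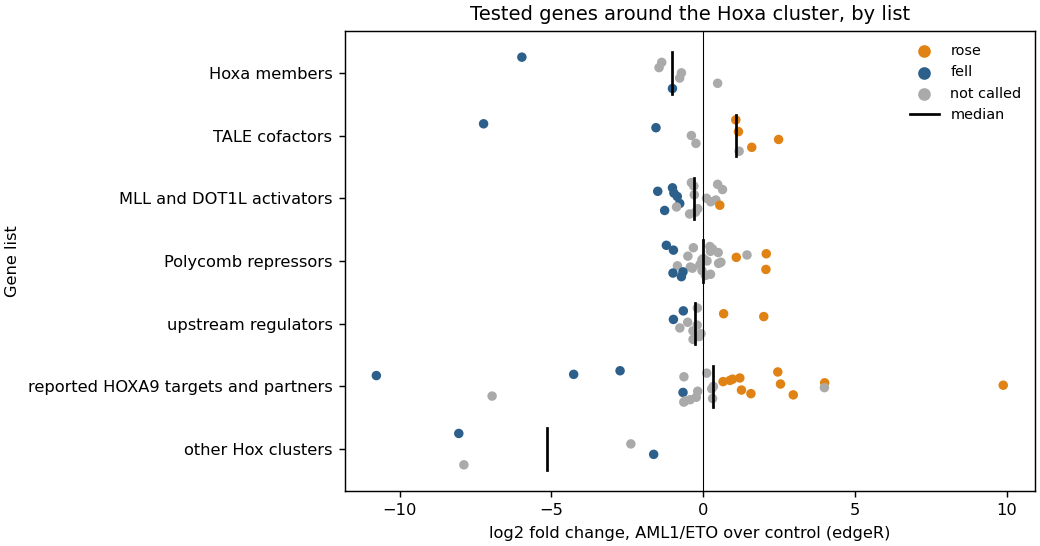
Each point is a tested gene, placed by its log2 fold change of AML1/ETO over control (edgeR) and coloured by its call; black bars are list medians. The Hoxa members lie mostly left of 0 and the TALE cofactors mostly right; points beyond −7 or near 10 are genes without a read in 1 group, whose fitted value is not a bound.

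Markers of several cell types also differed between the groups, and in bulk RNA fewer cells of a type cannot be told apart from less RNA per cell. The lists are short, and their counts compare with 11.6% of all tested genes that rose and 14.2% that fell. Mast cell and basophil markers summed to 2498 to 6796 CPM in AML1/ETO and 36.1 to 98.8 CPM in the controls, with 5 of 8 tested higher and 1 lower (2 lower by DESeq2 or without AML1/ETO library 1), and Cma1, Tpsb2 and Mcpt4 at 0 in every control. Neutrophil markers summed to 172 to 1066 against 1157 to 2997 CPM, with 3 of 8 lower, or 8 without AML1/ETO library 2 and 1 by limma-voom. Macrophage markers summed to 37.0 to 55.7 against 138 to 248 CPM, with 3 of 6 lower. B cell markers summed to 5.30 to 10.8 against 6.46 to 52.6 CPM and T and NK cell markers to 2.27 to 7.59 against 62.7 to 118 CPM, with 4 of 6 and 5 of 6 genes at 0 in every AML1/ETO library. Of those genes, 1 on the B cell list and 3 on the T and NK cell list had no read in any control either. In each of these lists 3 tested genes fell, but only 1 of the T and NK cell genes without any 1 of the AML1/ETO libraries or control library 5, and 1 by limma-voom. Of 11 tested genes on the stem cell list 9 rose and 1, Mecom, fell, and the list summed to 3148 to 4517 against 1464 to 1875 CPM. The list also holds Cd48, Cd34 and Flt3, genes of early progenitors, and Flt3 was among the risers. Its count and sum are therefore not of stem cell genes alone. Erythroid (12.2 to 71.1 against 2.98 to 41.5 CPM) and megakaryocyte (191 to 641 against 202 to 350 CPM) sums overlapped, with 1 of 5 erythroid genes higher and, of 4 megakaryocyte genes, 1 higher and 2 lower. The 1 higher, Itga2b, was lost by limma-voom, with scaling by totals alone and without AML1/ETO library 1 or 3 or control library 1, 2, 3 or 5. The megakaryocyte genes called lower were 3 by DESeq2, with scaling by totals alone and without AML1/ETO library 2 or 3. Stromal and endothelial sums were 349 to 460 against 152 to 196 CPM, with 2 of 3 genes higher. The part of these differences in the levels of Hoxa9 and Hoxa10 was not tested.

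By Pearson correlation of log2 CPM over the 8 libraries, the genes whose pattern was most like that of Hoxa9 were Paox (r = 0.986), Mrps30 (0.982), Taf5l (0.982), Nupl2 (0.981) and Tmed2 (0.980). All 5 had a lower mean in AML1/ETO, from 3.79 against 18.3 CPM for Paox to 141 against 267 CPM for Tmed2, and Taf5l was not called (adjusted p = 0.0552, edgeR). The libraries share the difference between groups and their depth, so these values describe a likeness of profile only.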

How the data were processed

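RNA-seq read counts of 8 libraries were used as deposited: raw counts per Ensembl gene, with 1 column per library. Per the submitters' processing notes the tools were HISAT2 2.0.5 and featureCounts 1.5.0-p3 with mm10. Neither the annotation release nor the handling of strand and of reads over several genes was stated. Both bear on the members whose exons overlap other genes. By share of exon bases these are Hoxa11 (35.0%), Hoxa3 (27.1%), Hoxa7 (20.4%), Hoxa4 (16.0%), Hoxa2 (15.0%) and Hoxa9 (1.5%). No sample column was left unused.

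The test across the 15009 genes passing filterByExpr was that of edgeR 4.0.16 under R 4.3.3 (TMM, glmQLFit, glmQLFTest, two-sided, Benjamini-Hochberg over all genes, threshold 0.05), AML1/ETO against control without covariates. SEs come from the F statistic. Alternatives used DESeq2 1.42.0 and limma 3.58.1 (voom), other scalings and filters, left-out libraries and the replicate number as a block. The procedure was tested on simulated data. Gene models are GENCODE M21 on GRCm38.

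The members, lists and tests were chosen with earlier results of these data known. The rule named all members and cluster neighbours, up to 4 genes per list by smallest p and the 5 genes most like Hoxa9 (mean of 5 CPM or more). Meis1, Meis3, Kmt2a, Men1, Mllt10, Ezh2, the Cdx genes and the marker genes named were added after their values were seen. Some genes that the rule names are not reported here.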

Additional observations from a re-analysis of the deposited data

Results flagged for a closer look

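In 3 members 1 control library stood far from the other 4, by more than Dixon's 95% limit for the gap over the range of 5 samples. Hoxa6 was at 11.3 CPM in control library 1 and at 5.22 to 5.65 CPM in the other 4. Hoxa5 was at 22.4 CPM in control library 4 and at 11.1 to 13.1 CPM in the others. Hoxa4 was at 1.58 CPM in control library 2 and at 0 to 0.440 CPM in the others, all of them few reads. Chance marks about 1 in 20 groups, and 16 sets of control values were checked, 9 of them members.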

How the results depend on the processing

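Hoxa10 was called lower under all 18 alternatives, from −11.65 (without AML1/ETO library 3) to −5.39, and Hoxa9 under 16, from −1.16 to −0.83. No tested member changed sign, and Hoxa2, Hoxa3, Hoxa5, Hoxa6 and Hoxa7 were called under none. The labels number the libraries in both groups, but libraries with the same number did not deviate together (r of 0.04, −0.04 and 0.03 for numbers 1, 2 and 3), and AML1/ETO library 1 correlated more with control library 2. With the replicate number as a block, which leaves out control libraries 4 and 5, 939 genes fell, 1043 rose and 1 member, Hoxa10, was called lower. Hoxa9 was then at −0.83 (adjusted p = 0.0933). The same 6 libraries without a block, an alternative chosen after seeing the data as was leaving out genes on X and Y, gave 1108 falls and 1 member called lower, and Hoxa9 was at −0.87 (adjusted p = 0.0673). With the longest transcript as gene length, 5 members changed rank in the controls and 2 in AML1/ETO. With a library left out, 0 to 2 changed rank in the controls and 2 to 3 in AML1/ETO. Hoxa2, Hoxa4, Hoxaas2, Hoxaas3 and Hotairm1 had at most 102 reads in every library, a range in which many genes were at 0 by library, and differences among them are weakly resolved.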
